A study of Mus musculus with 8 samples.

Results

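The genes described here carry fatty acids from the capillary wall into the adipocyte: *Lpl*, *Gpihbp1*, *Angptl4*, *Cd36*, *Slc27a1*, *Cav1*, *Fabp4*, *Fabp5*, *Acsl1* and *Aqp7*. They were chosen by name, and their probes were found by matching the accession of each array probe to a RefSeq symbol. All 10 genes were measured, on 12 probes, among 25092 gene names tested and 36799 names on the array. There were 4 samples of white adipose tissue from Ad/NICD mice, which overexpress N1ICD, the intracellular domain of Notch1, and 4 from WT mice. All mice were 5 weeks old, of mixed 129 and C57BL/6 background, and ate regular chow. Each of 4 two-colour arrays on 1 slide held 1 Ad/NICD and 1 WT sample of the same replicate number, with no dye swap. The sources used here name neither the promoter that drives the transgene nor the fat depot nor the sex of the mice. The labels call the samples biological replicates, without saying that each came from its own animal, so p-values measure the spread between these samples.

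White adipocytes take most of their fatty acids from circulating triglyceride. Lipoprotein lipase (LPL) is made by adipocytes and held on capillary endothelium by GPIHBP1, where it releases fatty acids, and ANGPTL4 inhibits it. CD36, the transport protein FATP1 (gene *Slc27a1*) and caveolae bring the acids across the plasma membrane, FABP4 and FABP5 bind them in the cytosol, and ACSL1 joins them to coenzyme A for storage. AQP7 is a channel for the glycerol that leaves the cell when fat is broken down.

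Values are log2 ratios of Ad/NICD over WT on each array, after background correction and loess normalisation, or log2 signals of each sample (levels). The sign is the likely one: in the authors' value table the Ad/NICD columns held the red channel and the WT columns the green. Each sample's dye tag says the reverse. If the tags were right, every sign below would turn and the levels of Ad/NICD and WT samples would change places. Without a dye swap, dye and genotype cannot be told apart. *Heyl*, a direct Notch target, had a log2 ratio of 2.87 ± 0.17 (SE, 4 arrays; limma, adjusted p = 0.0399) in Ad/NICD. *Notch1* was at 0.36 ± 0.24 (SE; adjusted p = 0.542), and whether its probe lies within N1ICD was not determined. Across all names, 12 of 25092 (0.0478%) passed an adjusted p of 0.05, 7 higher and 5 lower, and 3825 had an unadjusted p under 0.05. The ratios of 2 arrays correlated across genes between -0.10 and 0.49. The arrays of replicates 1 to 3 carried *Xist* signal in both samples, and the array of replicate 4 carried *Ddx3y* signal and little *Xist* in both, so sex-linked signal differed between arrays but not within one.

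The 10 genes were mostly lower in Ad/NICD fat, and none passed the adjusted threshold. Of the 10, 9 had a mean log2 ratio below 0, with a median of -0.62, against 51.6% of all names below 0 and a median of -0.0059. By array, in replicate order, their medians were -0.30, -1.08, -0.80 and -0.16. Without replicate 2 the median of the 10 was -0.40, and leaving out other arrays gave values down to -0.75. *Slc27a1*, *Cd36*, *Acsl1*, *Gpihbp1* and *Fabp5* were below 0 on all 4 arrays, which held for 13.3% of all names, and 0 of the 10 were above 0 on all 4, against 11.2% of names. A mean ratio of -1 or lower, at most 0.5 times the WT level, was reached by *Slc27a1* and *Acsl1*, and by 0.646% of all names. In *Slc27a1*, *Cd36* and *Acsl1*, every Ad/NICD sample lay below every WT sample, which held for 5.55% of names. By limma, 0 of the 10 passed (0.0199% of all names passed as lower), and 5 had an unadjusted p under 0.05 in the lower direction (8.99% of names): *Slc27a1*, *Gpihbp1*, *Cd36*, *Acsl1* and *Angptl4*. The genes were chosen with earlier results of these data known, so these counts are a description.

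**Figure D1:**
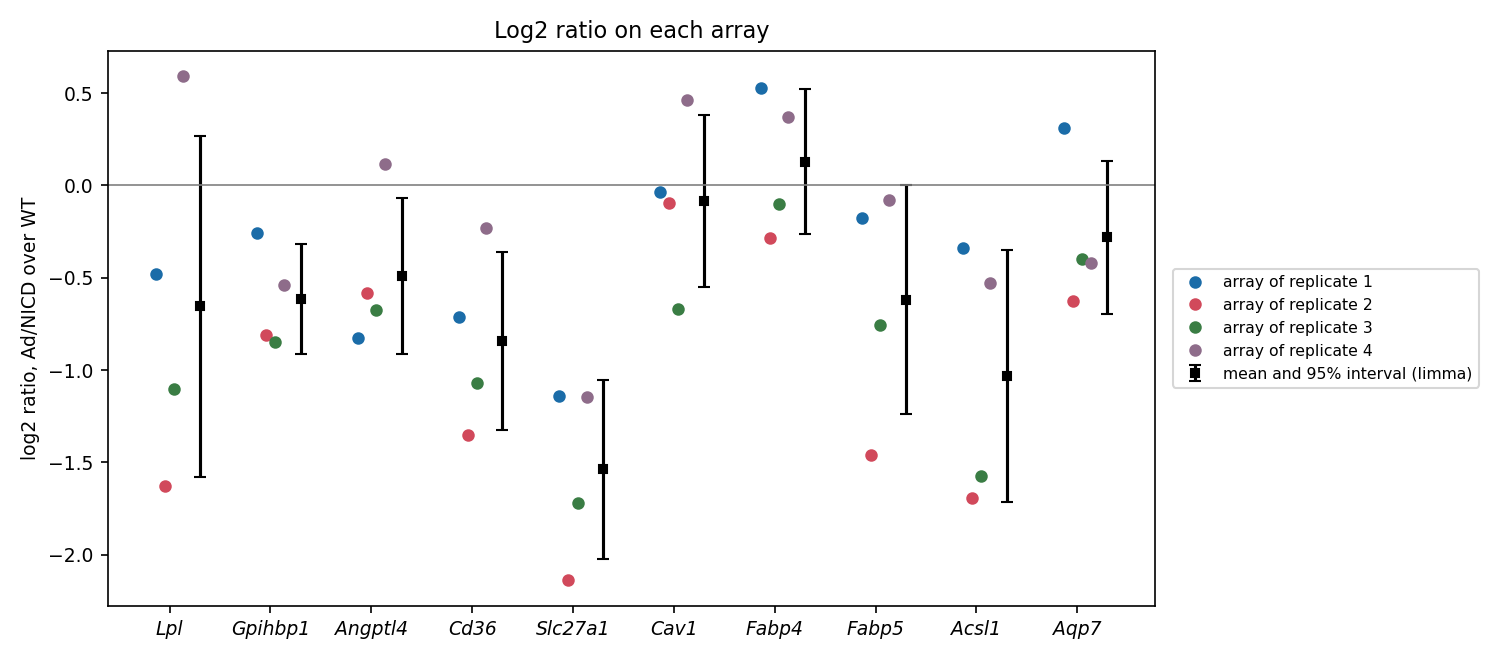
Log2 ratio of Ad/NICD over WT (vertical axis) for the 10 genes, ordered from capillary to cell interior; coloured points are the 4 arrays and black squares with bars are the limma mean with its 95% interval. *Slc27a1* lies lowest at -1.54, *Fabp4* sits at 0.13 with arrays on both sides of 0, and the array of replicate 4 is the highest point for *Lpl*, *Angptl4*, *Cd36*, *Cav1* and *Fabp5*.

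At the capillary wall, *Lpl*, which encodes the lipase itself, gave an answer that depended on the probe. On its brighter probe (A_51_P259296), the log2 signals were 14.56, 14.25, 14.18 and 15.15 in Ad/NICD samples of replicates 1 to 4, against 15.04, 15.88, 15.29 and 14.55 in WT samples. The groups overlapped, because replicate 4 ran the other way. The ratios were -0.48, -1.63, -1.10 and 0.59, with a mean of -0.65 ± 0.36 (SE; limma, adjusted p = 0.461), and the mean was -1.07 without replicate 4 and -0.33 without replicate 2. The dimmer probe (A_52_P257812) was below 0 on all 4 arrays, at -0.66, -1.70, -1.37 and -0.78, with a mean of -1.13 ± 0.25 (SE from the SD of 4 arrays), and its adjusted p was 0.141 when it stood for the gene. The 2 probes parted on the array of replicate 4. There the raw signal of the brighter probe was 5.03 times that of the dimmer one in the Ad/NICD sample and 1.79 times in the WT sample. On the other 3 arrays this quotient was 3.82 to 4.60 in Ad/NICD samples and 3.19 to 3.42 in WT samples.

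*Gpihbp1*, the endothelial anchor of the lipase, was lower on each array by a modest amount. Its log2 signals were 12.38, 12.62, 11.98 and 12.83 in Ad/NICD samples, against 12.63, 13.44, 12.83 and 13.37 in WT samples. Each Ad/NICD sample lay below the WT sample on its own array, although the groups overlapped. The mean ratio was -0.61 ± 0.12 (SE), 0.653 times the WT level (adjusted p = 0.139). *Angptl4*, the inhibitor of the lipase, had log2 signals of 13.86, 14.31, 14.11 and 15.08 in Ad/NICD samples, against 14.69, 14.90, 14.79 and 14.97 in WT samples. Replicates 1 to 3 were lower in Ad/NICD and replicate 4 slightly higher, and the mean ratio was -0.49 ± 0.17 (SE; adjusted p = 0.272). The SD was 0.53 among Ad/NICD samples and 0.12 among WT samples (n = 4 each).

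At the plasma membrane, *Slc27a1*, which encodes the insulin-regulated fatty acid transporter FATP1, showed the widest gap of the 10. Its log2 signals were 11.19, 10.63, 10.88 and 10.62 in Ad/NICD samples, against 12.33, 12.77, 12.60 and 11.77 in WT samples. The highest Ad/NICD sample stayed below the lowest WT sample. The mean was 10.83 ± 0.27 in Ad/NICD and 12.37 ± 0.44 in WT (SD, n = 4 each), and the ratios were -1.14, -2.14, -1.72 and -1.15. The mean ratio of -1.54 ± 0.19 (SE, 95% interval -2.02 to -1.05) is 0.345 times the WT level. Its unadjusted p was 0.000374 and its adjusted p 0.113. In the ranking of all 25092 names by ratio it stood at place 55 from the lowest. When the 8 channels were fitted as separate samples instead of 4 ratios, *Slc27a1* fell in Ad/NICD with an adjusted p of 0.0156 where arrays were a random block, and of 0.0260 with no block. Those fits called 500 (1.99%) and 258 (1.03%) of all names, 1.14% and 0.614% as lower, and *Slc27a1* was the one member called in either.

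The region at the start of *Slc27a1* is shown because it holds the one match among the genes to the letters GTGGGAA, the core bound by RBPJ, the DNA-binding partner of N1ICD. The match (in capitals) begins 87 bases before the start site on the gene's own strand. The window is chr8:71568621-71568920, plus strand, from the RefSeq promoter table of GRCm38.p6, which spans 250 bases before to 50 bases after each start.
Slc27a1: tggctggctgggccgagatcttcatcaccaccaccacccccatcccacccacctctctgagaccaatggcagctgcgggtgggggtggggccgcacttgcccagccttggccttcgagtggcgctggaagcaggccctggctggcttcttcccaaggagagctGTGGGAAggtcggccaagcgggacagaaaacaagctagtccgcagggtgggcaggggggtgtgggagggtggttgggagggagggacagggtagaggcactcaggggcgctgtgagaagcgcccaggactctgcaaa
Of 32851 windows in the table, 6.38% held these letters on either strand, and 1 of the 10 windows that matched *Slc27a1*, *Cd36*, *Acsl1*, *Aqp7* or *Cav1* did. A match is a description of the letters, not evidence of binding. Another *Slc27a1* window held CACGTG, the E-box core, which 7.15% of all windows held. *Lpl*, *Fabp4*, *Fabp5*, *Gpihbp1* and *Angptl4* had no entry.

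*Cd36*, which encodes the main fatty acid translocase of adipocytes, was also lower in each Ad/NICD sample than in any WT sample. The log2 signals were 12.54, 12.53, 12.29 and 13.24 in Ad/NICD samples, against 13.25, 13.88, 13.36 and 13.47 in WT samples. The closest approach was 13.24 in Ad/NICD replicate 4 and 13.25 in WT replicate 1, on different arrays. The ratios were -0.71, -1.35, -1.07 and -0.23, with a mean of -0.84 ± 0.19 (SE), 0.558 times the WT level (adjusted p = 0.167). Its start region is shown for the letters AGGTCA, a hexamer bound by nuclear receptors such as PPARγ, which governs *Cd36* in adipocytes. They occur on the reverse strand, so the capitals read TGACCT, from 228 bases before the start. The window is chr5:17835847-17836146, minus strand (RefSeq, GRCm38.p6).
Cd36: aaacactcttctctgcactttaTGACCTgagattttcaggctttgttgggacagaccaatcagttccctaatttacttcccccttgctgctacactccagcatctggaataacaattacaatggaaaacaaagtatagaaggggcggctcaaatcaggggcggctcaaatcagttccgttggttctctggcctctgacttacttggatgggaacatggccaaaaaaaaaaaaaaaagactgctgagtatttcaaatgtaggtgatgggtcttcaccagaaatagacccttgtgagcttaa
These letters stood in 16.3% of all windows and in 3 of the 10 member windows, the other 2 being of *Aqp7*. Those 2 windows overlap and share 1 site, which is thus counted in both. The repeat AGGTCA, any base N, AGGTCA, which contains them, stood in 0.0396% of windows and in 0 of the 10. TATAAA stood in 13.6% of windows and in 1 of the 10.

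*Cav1*, which encodes the caveolar coat protein caveolin-1, gave ratios on both sides of 0. Its probe (A_55_P2126662) had log2 signals of 8.79, 8.80, 8.35 and 9.53 in Ad/NICD samples, against 8.82, 8.90, 9.02 and 9.07 in WT samples. The mean ratio was -0.085 ± 0.18 (SE; adjusted p = 0.862), so no direction can be read, and it was 0.11 without replicate 3.

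**Figure D2:**
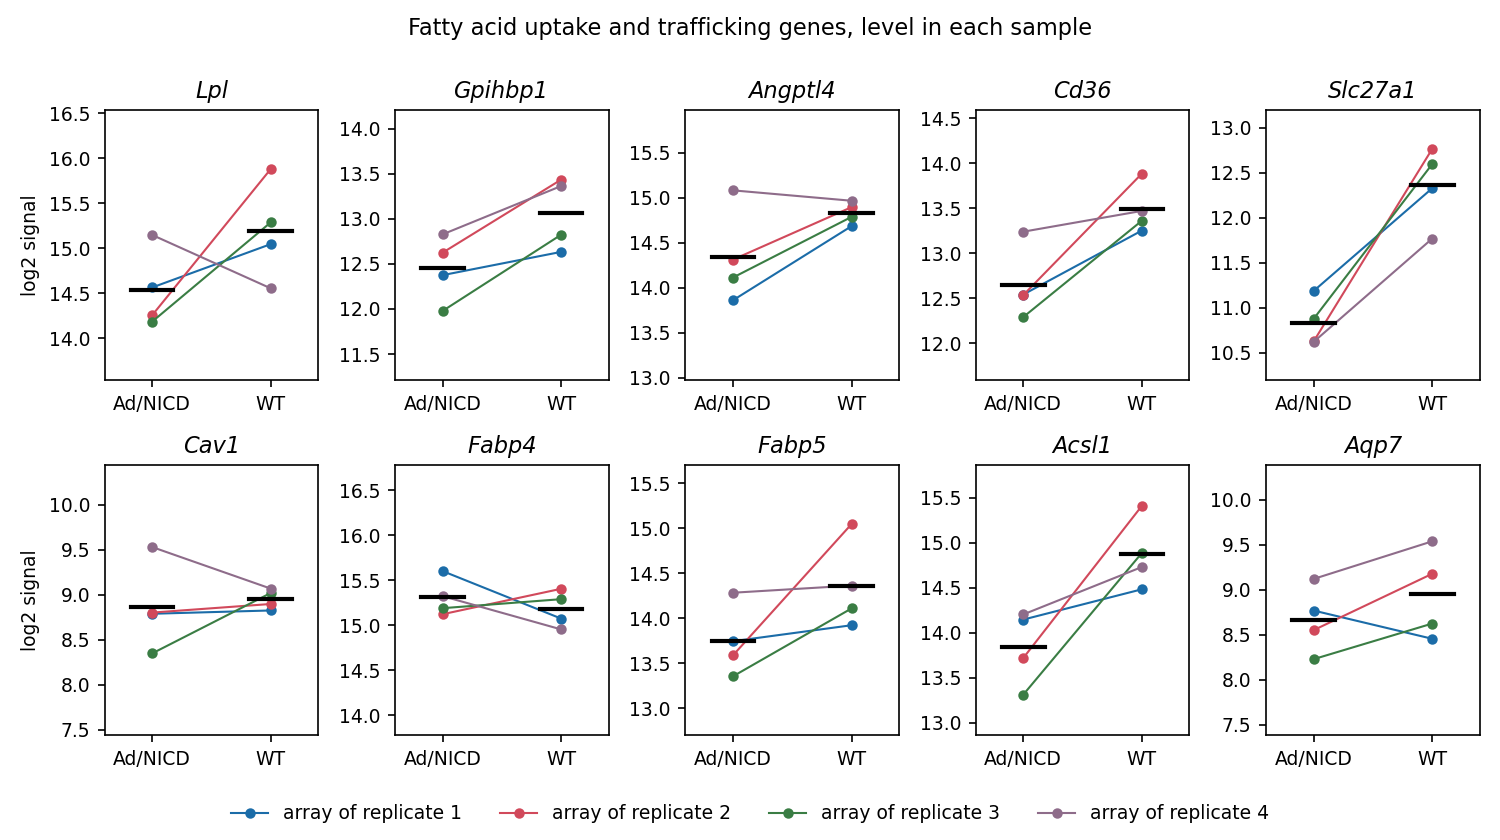
Log2 signal of each sample (vertical axis) for the 10 genes, Ad/NICD left and WT right in each panel; lines join samples on the same array, black bars are group means, and each panel spans 3 log2 units on its own axis. Ad/NICD and WT points do not overlap for *Slc27a1*, *Cd36* and *Acsl1*, whereas the *Fabp4* and *Cav1* lines cross in both directions.

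In the cytosol, *Fabp4*, which encodes the most abundant fatty acid-binding protein of adipocytes, was the one member with a mean ratio above 0. Its log2 signals were 15.60, 15.12, 15.19 and 15.32 in Ad/NICD samples, against 15.07, 15.40, 15.29 and 14.95 in WT samples. The groups overlapped, with replicates 1 and 4 higher in Ad/NICD and replicates 2 and 3 lower. The mean ratio was 0.13 ± 0.15 (SE; adjusted p = 0.739), and it was -0.0043 without replicate 1, -0.068 with the scanner's processed signals and -0.088 in the authors' values. Median centring in place of loess gave -0.072 for *Fabp4*, but it moved the median of all names to -0.32, so *Fabp4* stayed above that median. The probe lay near the top of the array's brightness, where the 285 names closest to it had a median ratio of 0.26 and 11.9% of them were below 0. *Fabp5*, which encodes the related keratinocyte-type protein, had log2 signals of 13.74, 13.58, 13.35 and 14.28 in Ad/NICD samples, against 13.92, 15.04, 14.11 and 14.36 in WT samples. It was lower on each array, by little in replicates 1 and 4, and its mean ratio was -0.62 ± 0.25 (SE; adjusted p = 0.332). Without replicate 2 the *Fabp5* ratio was -0.34. *Fabp4* and *Fabp5* are neighbours on a chromosome with 2 protein-coding genes between them, *Pmp2* and *Fabp9*.

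*Acsl1*, which encodes the main long-chain acyl-CoA synthetase of adipocytes, had a mean ratio below -1 on its brighter probe. Its log2 signals were 14.15, 13.72, 13.31 and 14.20 in Ad/NICD samples, against 14.48, 15.41, 14.89 and 14.73 in WT samples. All Ad/NICD samples lay below all WT samples, by more in replicates 2 and 3 than in 1 and 4. The ratios were -0.34, -1.69, -1.57 and -0.53, with a mean of -1.03 ± 0.27 (SE), 0.489 times the WT level (adjusted p = 0.197). A second probe (A_51_P463452) gave -0.089, -1.68, -1.38 and -0.65, with a mean of -0.95 ± 0.36 (SE from the SD of 4 arrays). *Aqp7*, the glycerol channel, had log2 signals of 8.77, 8.55, 8.23 and 9.12 in Ad/NICD samples, against 8.46, 9.18, 8.63 and 9.54 in WT samples. It was lower on 3 of 4 arrays, with a mean ratio of -0.28 ± 0.16 (SE; adjusted p = 0.482). Leaving out replicate 1 gave -0.48 for *Aqp7*, and leaving out replicate 2 gave -0.17.

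The transporters and translocase were then set against the binding protein and the lipase within each array. *Slc27a1* was further below WT than *Fabp4* by nearly the same amount on every array. The differences in log2 ratio were -1.67, -1.86, -1.62 and -1.52, with a mean of -1.67 ± 0.071 (SE, 95% interval -1.89 to -1.44). For *Cd36* minus *Fabp4* they were -1.24, -1.07, -0.97 and -0.60, with a mean of -0.97 ± 0.13 (SE, 95% interval -1.40 to -0.54). Both pairs were below 0 on 4 of 4 arrays. In the two-sided exact sign-flip permutation test, 2 of 16 sign patterns were as extreme for each (p = 0.13). That is the smallest p this test can give with 4 arrays, and it was 0.167 after Benjamini-Hochberg adjustment over 4 pairs. The test therefore cannot reach 0.05 with 4 arrays, whatever the size of the differences. The 95% intervals come from the SE and a t distribution instead. For comparison, the SE taken in the same way, from the SD of 4 arrays, was 0.242 for the ratio of *Slc27a1* alone and 0.191 for that of *Fabp4* alone. Names of similar brightness to *Fabp4* had a median ratio of 0.26, against -0.053 for those similar to *Slc27a1* and -0.045 for *Cd36*. The differences were not adjusted for brightness.

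Against *Lpl*, the outcome turned on the probe. *Slc27a1* minus the brighter *Lpl* probe was -0.66, -0.51, -0.62 and -1.74, with a mean of -0.88 ± 0.29 (SE, 95% interval -1.80 to 0.033; exact p = 0.13). Against the dimmer *Lpl* probe it was -0.48, -0.44, -0.35 and -0.37, with a mean of -0.41 ± 0.029 (SE; exact p = 0.13). *Slc27a1* was thus lower relative to WT than *Lpl* on all 4 arrays with either probe, by different amounts. Names of similar brightness to the brighter *Lpl* probe had a median ratio of 0.19, and these differences were not adjusted for brightness either. *Cd36* minus the brighter *Lpl* probe was -0.23, 0.28, 0.033 and -0.82, with a mean of -0.19 ± 0.24 (SE, 95% interval -0.94 to 0.57; exact p = 0.75). Against the dimmer probe it was 0.29 ± 0.12 (SE; exact p = 0.25), so no order of *Cd36* and *Lpl* can be given.

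**Figure D3:**
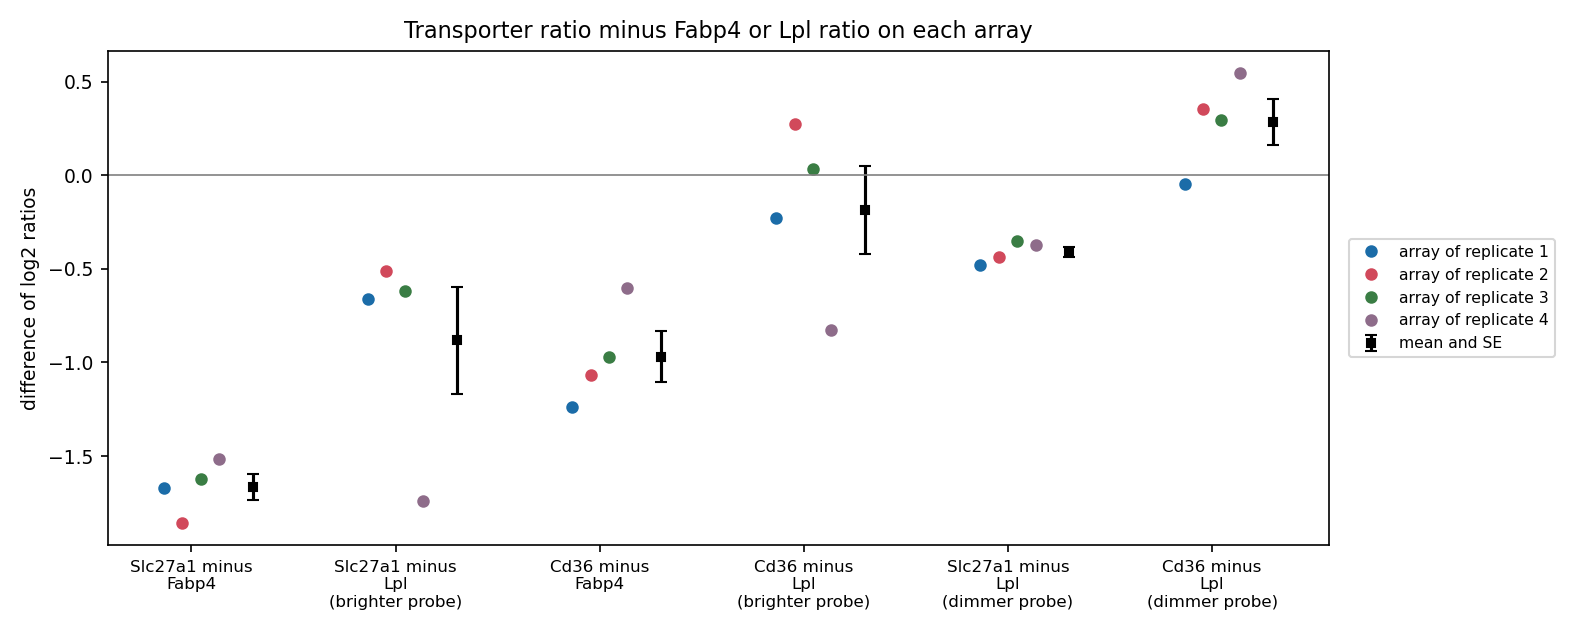
Difference in log2 ratio (Ad/NICD over WT) between 2 genes on each array (vertical axis) for the 4 pairs, those with *Lpl* drawn for each of its 2 probes; points are arrays and black squares with bars are the mean and its SE. *Slc27a1* minus *Fabp4* lies in a narrow band between -1.86 and -1.52, whereas *Cd36* minus *Lpl* lies on both sides of 0 with either probe.

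Beyond these 10, a list of 81 other genes of fatty acid handling held 75 that were measured above background. Their median ratio was -0.20, with 53 below 0 and 22 above. By limma 0 passed the adjusted threshold, 20 had an unadjusted p under 0.05 in the lower direction (8.99% of all names) and 4 in the higher (6.26%). Among paralogs, *Slc27a2*, which encodes FATP2, known mainly from liver and kidney, had ratios of -0.08, -4.42, -1.11 and -1.81 and a mean of -1.86 ± 0.70 (SE; adjusted p = 0.312), resting largely on replicate 2. *Slc27a3*, *Slc27a4*, *Slc27a5* and *Slc27a6* lay between -0.034 and 0.25. *Slc27a4* and *Slc27a5* were dim, with raw Ad/NICD signals of 52.5 to 64 and 34 to 42, against a red background of 19 to 20. Their ratios near 0 therefore do not show a lack of change. No test of *Slc27a1* against its paralogs was made. *Acsl4*, an arachidonate-preferring synthetase, was at -0.32 ± 0.073 (SE; adjusted p = 0.169), *Acsl5* at -0.28 ± 0.20 (SE) and *Acsl3* at -0.026.

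Among the other binding proteins, *Fabp1*, *Fabp2*, *Fabp7* and *Fabp12* lay between -0.23 and 0.17. *Fabp1* and *Fabp12* were dim too, with raw Ad/NICD signals of 34 to 94 and 34 to 53. *Fabp3*, the heart and muscle form, had ratios of 2.01, -1.41, 0.45 and -0.24, so arrays disagreed on its direction. *Scp2*, which encodes a carrier of sterols and acyl-CoA, was at -0.47 ± 0.15 (SE; adjusted p = 0.243). *Cav2*, the partner of caveolin-1, was at -0.66 ± 0.20 (SE; adjusted p = 0.241) on its brightest probe, lower on 3 of 4 arrays. Its other probes averaged -0.41 and 0.078, so they did not share a direction. *Cav3*, the muscle caveolin, had ratios of -0.040, -0.093, 0.29 and -2.23 and a mean of -0.52 ± 0.44 (SE), resting largely on replicate 4. Its raw Ad/NICD signals were 29 to 56. *Angptl8*, which encodes an insulin-responsive partner in lipase inhibition, was at 0.27 ± 0.31 (SE), above 0 on 3 of 4 arrays. *Aqp1*, *Aqp3*, *Aqp5* and *Aqp11* lay between -0.40 and 0.041. Of these paralogs, *Slc27a6* and *Fabp2* were each above background on 2 of 4 arrays in Ad/NICD and 3 of 4 in WT, and *Aqp5* on 4 of 4 in Ad/NICD and 3 of 4 in WT.

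*Apoc3*, which encodes an apolipoprotein that inhibits LPL, had ratios of -1.47, -2.32, -1.87 and -0.998 and a mean of -1.66 ± 0.22 (SE; adjusted p = 0.113). These are from its brighter probe, whose raw signals in Ad/NICD samples were only 43 to 63. A second, dimmer *Apoc3* probe gave 0.14, 0.10, -0.19 and 0.056, with a mean of 0.028, so the decrease rests on 1 probe. *Acsm3* and *Acsm5*, which encode medium-chain acyl-CoA synthetases, were at -1.88 ± 0.26 (SE; adjusted p = 0.116) and -1.56 ± 0.23 (SE; adjusted p = 0.1253), each below 0 on all 4 arrays. Raw *Acsm5* signals in Ad/NICD samples were low as well, at 47 to 61.5. These 3 genes and *Acss3* passed the threshold in the random-block fit (adjusted p = 0.0150, 0.0188, 0.0388 and 0.0434 for *Apoc3*, *Acsm3*, *Acsm5* and *Acss3*), where 1.14% of all names passed as lower. With no block *Apoc3* and *Acsm3* passed, at 0.0233 and 0.0310.

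By step, the members and their relatives had medians of -0.22 for capillary lipolysis (18 of 19 measured), -0.17 for membrane uptake and caveolae (24), -0.15 for binding (14 of 16), -0.28 for acyl-CoA synthesis and hydrolysis (23 of 25) and -0.18 for glycerol channels and kinase (6 of 7). Below 0 were 11 of 18, 16 of 24, 11 of 14, 19 of 23 and 5 of 6 genes of these steps, in the same order, and 4, 7, 4, 9 and 0 of them were below 0 on all 4 arrays. Of all names, 51.6% were below 0 and 13.3% were below 0 on all 4 arrays, and the step counts include the members. Among 20 regulators of these genes, the median was -0.23 and 15 were below 0. *Rxra*, which encodes the partner receptor of PPARγ, was at -0.47 ± 0.073 (SE; adjusted p = 0.127), but its second probe averaged -0.12. *Nr1h2*, which encodes the sterol receptor LXRβ, was at -0.39 ± 0.063 (SE; adjusted p = 0.129). With the random block both passed (adjusted p = 0.0245 and 0.0270), in a fit where 1.14% of all names passed as lower. Raw signals of the brighter *Rxra* probe in Ad/NICD samples were only 52.5 to 85.

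**Figure D4:**
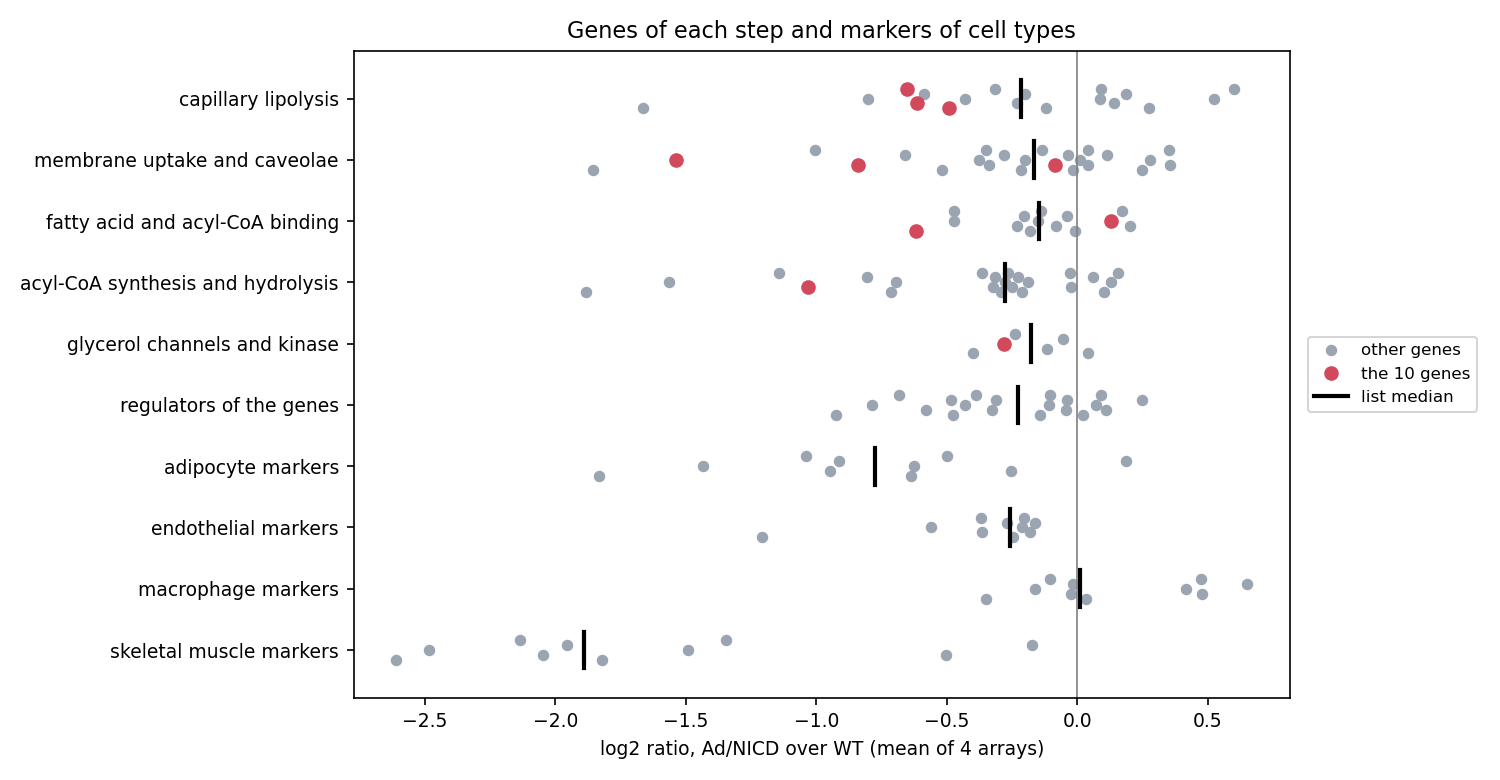
Mean log2 ratio of Ad/NICD over WT (horizontal axis) for the genes of each step, their regulators and 4 lists of cell type markers; red points are the 10 genes, grey points other genes, and black bars list medians. The steps have medians between -0.28 and -0.15, adipocyte markers -0.77 and skeletal muscle markers -1.89.

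Markers of the tissue's cell types are given beside these values. Of 10 adipocyte markers, 9 were below 0, with a median of -0.77 and array medians of -0.43, -1.01, -1.34 and -0.14, and their summed log2 signal was 16.66 to 17.77 in Ad/NICD samples, against 17.98 to 18.42 in WT samples. The markers were present in every sample, and their medians, like those of the 10 genes, were lowest on the arrays of replicates 2 and 3. All 10 endothelial markers were below 0, with a median of -0.26, and their sums were 14.49 to 14.88 in Ad/NICD samples, against 14.97 to 15.09 in WT samples. For macrophage markers the median was 0.009, 5 of 10 were below 0, and the sums were 14.63 to 15.28 in Ad/NICD samples, against 14.74 to 15.27 in WT samples. All 10 skeletal muscle markers were below 0, with array medians of -0.55, -2.13, -0.69 and -3.86 and sums of 10.25 to 13.13 in Ad/NICD samples, against 11.28 to 17.15 in WT samples. The 5 brown fat markers had array medians of 1.25, -1.80, -0.12 and 0.048. The part of these cell types in the result was not tested, and in whole tissue fewer cells of a type and less RNA per cell cannot be told apart.

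The genes with array patterns most like *Slc27a1*, by Euclidean distance over the 4 ratios among 15824 names with a RefSeq symbol, were *Ces1d* (0.288), *Pcx* (0.369) and *Apoc3* (0.429). For *Cd36* they were *Smoc1* (0.185), *Abhd5* (0.196) and *Csad* (0.197). *Ces1d* encodes a lipid-droplet carboxylesterase, *Pcx* pyruvate carboxylase, and *Abhd5* the activator of adipose triglyceride lipase.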

How the data were processed

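Gene expression was measured in white adipose tissue of 4 Ad/NICD and 4 WT samples on 4 two-colour arrays. Scans were read with Agilent Feature Extraction 11.5, per the submitters' processing notes. The deposited scanner tables give intensity per spot, with no normalisation between arrays, and a log10 ratio of red over green, which was not used. The authors' deposited value table is on a log2 scale, and each column equalled 1 channel's processed signal less its 75th percentile; no other step is given in the sources used here. Column medians lay between -3.84 and -3.52. Scanner tables of same-numbered WT and Ad/NICD samples were identical in all 4 pairs. The number of unused columns was 0.

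Background was corrected with normexp (offset 50) on median signals, and each array's ratios by loess, control spots carrying weight 0 (software limma 3.58.1 in R 4.3.3). Of 55681 probes, 34394 were kept, those flagged well above background in 1 or both channels on 3 or 4 of the 4 arrays. For replicate 1, whose table lacks the flags, a threshold on the spread of negative controls replaced them; on the other 3 arrays it matched the scanner's flag for 97.4% to 100.0% of spots. Per channel, 55.6% to 65.9% of spots exceeded background, with median foreground of 31 to 40 (red) and 67 to 79 (green). Of the probes, 28026 matched a RefSeq symbol (GRCm38.p6) and 27655 kept the file's name. The brightest kept probe stood for a gene. The 4 ratios were tested against 0 with limma's lmFit and eBayes and Benjamini-Hochberg adjustment over all 25092 names. Levels are log2 signals per channel after loess and limma's Aquantile scaling. The number of arrays limits the precision.

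Same-numbered samples share an array, so the ratio fit is the paired fit. Their deviations from the group means correlated at 0.17, 0.17, 0.56 and 0.53. Between samples of different arrays the correlation ran from -0.53 to 0.29. The 0.29 was for Ad/NICD replicate 3 with WT replicate 1, above the 0.17 of the replicate 1 pair. Alternatives fitted channels separately, with arrays as random blocks (correlation 0.159) or no block, and varied the offset, normalisation, filter, probe choice, variance model and arrays.

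The genes named were all members, the 2 lowest p-values of each list where none passed, and measured paralogs, apart from a gene not reported here. Members and lists were chosen with earlier results of these data known. The ratio fit was tested on simulated data first.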

Additional observations from a re-analysis of the deposited data

How the results depend on the processing

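Without the pairing of channels (no replicate block), 258 names passed, 154 lower and 104 higher, of which 1 was a member (*Slc27a1*) and 2 were other fatty acid handling genes. With the array as a random replicate block 500 passed, 285 lower and 215 higher, again with 1 member, and 4 other fatty acid handling genes. The all-gene count was 3 with the processed signals, 0 with median centring, 0 with no filter, 0 with a trended robust variance and 3 in the authors' values. Leaving out 1 array gave 0 to 43 names (43 without replicate 4, 34 lower and 9 higher) and 0 to 1 of the other genes. Among called names the share lower was 41.7%, against 58.8% with offset 16, 33.3% with the processed signals and 79.1% without replicate 4.

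Of 150 values of the 10 genes under alternatives, 142 kept their direction and side of the threshold, 2 passed it and 6 reversed. *Fabp4* turned to -0.068 (processed signals), -0.072 (median centring), -0.088 (authors' values) and -0.0043 (without replicate 1), the lowest of a leave-one-out range up to 0.27. *Cav1* turned to 0.0092 (processed signals) and 0.11 (without replicate 3), the highest of a range from -0.27. *Lpl* was -1.07 without replicate 4 and -0.33 without replicate 2, and *Aqp7* -0.48 without replicate 1 and -0.17 without replicate 2. Median centring moved the median of all names to -0.32 and that of the 10 genes to -0.90, so relative to all names *Fabp4* kept its direction there; *Aqp7* was -0.74. *Cd36* minus *Lpl* turned to 0.11 with the processed signals, 0.11 in the authors' values, 0.050 with the mean of kept probes and 0.29 with the dimmest probe, an alternative chosen after seeing the data. Leaving out 1 array gave -1.72 to -1.60 for *Slc27a1* minus *Fabp4*, -1.01 to -0.60 for *Slc27a1* minus *Lpl*, -1.09 to -0.88 for *Cd36* minus *Fabp4* and -0.34 to 0.026 for *Cd36* minus *Lpl*. The causes were not tested.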

Other observations

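Some genes that adipose or muscle endothelium uses to move fatty acids are given here as values and were named outside the rule for named genes, whatever their ratio. *Vegfb*, which encodes a growth factor linked in mice to endothelial fatty acid transport, had a log2 ratio of Ad/NICD over WT of -0.48 ± 0.14 (SE, 4 arrays). Its receptor genes *Flt1* and *Nrp1* were at -0.43 ± 0.11 and -0.11 ± 0.096 (SE). *Tcf15* and *Meox2*, which encode a pair of factors that act together in heart endothelium of mice, were at -0.79 ± 0.21, below 0 on 4 of 4 arrays, and -0.11 ± 0.20 (SE), with arrays on both sides of 0. Their difference was not tested, and on the array of replicate 1 *Meox2* was the lower, at -0.74 against -0.59 for *Tcf15*. Of these 5, 0 passed the adjusted threshold in limma, against 0.0478% of all names, and 0 passed with the array as a block (1.99%). In the ratio fit 3 (*Vegfb*, *Flt1* and *Tcf15*) had an unadjusted p under 0.05 in the lower direction, against 8.99% of all names.

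*Pparg*, which encodes the nuclear receptor that drives many genes of fatty acid uptake, was at 0.089 ± 0.10 (SE), and *Rbpj*, the DNA-binding partner of N1ICD, at 0.022 ± 0.18 (SE), with arrays on both sides of 0 for each. Of the 20 listed regulators, 15 were below 0 and 5 above, so *Pparg* and *Rbpj* do not stand for that list.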
